A study of Homo sapiens with 6 samples.

Results

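Antisense long non-coding RNAs were followed in HCT116 cells after Matrin3 knockdown, each beside the protein-coding or other gene whose name it carries. An antisense RNA was a gene whose symbol ends in -AS and a number, and members were chosen by their level, a mean over the 6 libraries of at least 1 CPM (the estimated count of the gene per 1000000 counts of its library). This rule kept 374 of the 1817 genes with such a symbol, among 15665 genes at this level and 58884 gene IDs in all. Their levels are therefore given as a description. HCT116 is an established human colorectal cancer line. The cells were transfected for 48 h with a negative control siRNA (siCTRL, 3 libraries) or with pooled siRNAs directed at Matrin3 (siMatrin3, 3 libraries), and total RNA depleted of ribosomal RNA was sequenced in biological triplicate. No other treatment or genetic change separates the groups, and all 6 libraries come from this 1 line.

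An antisense RNA is transcribed from the DNA strand opposite to another gene. It may start near the start of its partner and run away from it, lie inside an intron, or run across the exons of its partner, and RNAs of this kind are known to act on transcription, splicing or stability of the partner, or on distant genes, while many have no known role. Matrin3 is a nuclear matrix protein that binds RNA, prefers pyrimidine-rich sequence, and represses the inclusion of exons near its binding sites. Long non-coding RNAs are mostly nuclear and low in level, and the question was which antisense RNAs changed when Matrin3 was lost, and whether they changed with or apart from their sense genes.

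Each library held between 4556658 and 8400412 counts. The targeted gene, MATR3, stood at 345 ± 16.7 CPM in the control and fell to 70.6 ± 2.38 after knockdown (mean ± SD, n = 3 in each group), 20.4% of the control level. The log2 fold change (siMatrin3 minus siCTRL) with its SE was -2.29 ± 0.06 (adjusted p = 7.58e-11 by edgeR's quasi-likelihood test with Benjamini-Hochberg adjustment). Of 8 markers of colon epithelium, CDX1 was at 0 in all libraries and 6 were high enough to test. EPCAM and KRT19 passed the threshold, and the summed CPM of the 8 was 1576 to 1723 in siCTRL and 1798 to 1897 in siMatrin3. The 7 fibroblast markers summed to 20.3 to 21.6 CPM in siCTRL and 19.3 to 23.2 in siMatrin3, with COL1A2, COL3A1, DCN and LUM at 0, the 5 blood markers reached at most 0.549 CPM with CD3E and HBB at 0, and the 4 neural markers summed to 65.9 to 68.4 and 59.8 to 71.6 CPM. No marker of the last 3 lists was past the threshold, and the part of the epithelial markers in the results below was not tested. Fewer cells of a kind and less RNA per cell cannot be told apart in such bulk samples.

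Most antisense RNAs lay across the exons of their sense gene. A sense gene was found by name for 368 of the 374 members, 361 genes in all, and 367 members were on the strand opposite to it in GENCODE release 44 (hg38, matched by gene ID, because the deposited tables hold no coordinates). The 6 without one were HOXA-AS2, HOXA-AS3, HOXB-AS3, HOXB-AS4, HOXC-AS2 and HOXD-AS2, which are named after a cluster of HOX genes, the transcription factors that pattern the body axis. Exons of the antisense RNA and the sense gene shared bases in 273 members, only introns were crossed in 72, 18 members did not overlap the sense gene but started within 5000 bases of its start, and 4 started farther away. In 78 members, some of which also overlap, the 2 starts on opposite strands were within 1000 bases of each other. The annotation called 369 members long non-coding RNA and 5 by another type. Exons of 305 members shared bases with at least 1 other gene on either strand, and those of 69 with none. Whether the authors' counting used strand is not given in the sources used here. Without it, reads of an antisense RNA and of the gene across it cannot be told apart where they share exons, so that the values of those 305 members are uncertain to that extent. Exons of 53 members shared bases with a gene on the same strand, where counting by strand does not separate the reads either.

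6 antisense RNAs passed the threshold after Matrin3 knockdown. They were VPS9D1-AS1, ALDH1A3-AS1, PRRT3-AS1 and THAP9-AS1, which rose, and SLC25A25-AS1 and HERPUD2-AS1, which fell. The start of each is shown because these are the RNAs on which the comparison turns and because the windows differ in make-up. Each line gives 250 bases before and 50 bases after the start of the gene in RefSeq (GRCh38.p14), 5′ to 3′ on the strand of the antisense RNA, with GC boxes (GGGCGG on either strand, so also CCGCCC) in capitals.
VPS9D1-AS1 (chr16:89711606-89711905, plus strand): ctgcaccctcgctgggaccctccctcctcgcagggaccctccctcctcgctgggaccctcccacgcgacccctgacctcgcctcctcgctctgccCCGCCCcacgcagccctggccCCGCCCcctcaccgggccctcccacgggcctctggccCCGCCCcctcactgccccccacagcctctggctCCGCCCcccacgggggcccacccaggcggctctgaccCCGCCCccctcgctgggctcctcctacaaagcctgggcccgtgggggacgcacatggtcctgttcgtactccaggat
ALDH1A3-AS1 (chr15:100919234-100919533, minus strand): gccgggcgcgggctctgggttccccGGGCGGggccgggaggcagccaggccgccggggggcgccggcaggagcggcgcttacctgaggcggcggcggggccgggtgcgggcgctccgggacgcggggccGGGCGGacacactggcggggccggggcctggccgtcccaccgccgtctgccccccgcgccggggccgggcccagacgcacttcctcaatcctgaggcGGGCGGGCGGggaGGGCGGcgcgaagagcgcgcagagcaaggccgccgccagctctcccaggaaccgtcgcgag
PRRT3-AS1 (chr3:9947154-9947453, plus strand): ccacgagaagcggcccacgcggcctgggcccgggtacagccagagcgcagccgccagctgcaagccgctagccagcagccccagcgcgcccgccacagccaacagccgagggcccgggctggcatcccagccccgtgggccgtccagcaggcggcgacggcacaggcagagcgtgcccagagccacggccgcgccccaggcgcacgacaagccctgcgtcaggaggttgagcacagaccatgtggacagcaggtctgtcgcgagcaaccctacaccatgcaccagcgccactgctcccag
SLC25A25-AS1 (chr9:128118685-128118984, minus strand): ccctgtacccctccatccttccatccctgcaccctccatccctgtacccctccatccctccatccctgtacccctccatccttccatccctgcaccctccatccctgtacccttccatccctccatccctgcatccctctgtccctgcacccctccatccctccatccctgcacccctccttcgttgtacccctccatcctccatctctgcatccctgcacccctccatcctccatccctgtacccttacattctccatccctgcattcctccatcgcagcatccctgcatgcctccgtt
THAP9-AS1 (chr4:82900867-82901166, minus strand): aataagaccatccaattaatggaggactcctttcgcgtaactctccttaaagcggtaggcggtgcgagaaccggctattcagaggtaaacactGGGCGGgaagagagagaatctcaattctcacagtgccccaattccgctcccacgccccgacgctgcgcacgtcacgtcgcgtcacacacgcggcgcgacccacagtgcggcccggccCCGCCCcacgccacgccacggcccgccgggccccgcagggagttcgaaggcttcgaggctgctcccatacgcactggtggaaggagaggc
HERPUD2-AS1 (chr7:35694956-35695255, plus strand): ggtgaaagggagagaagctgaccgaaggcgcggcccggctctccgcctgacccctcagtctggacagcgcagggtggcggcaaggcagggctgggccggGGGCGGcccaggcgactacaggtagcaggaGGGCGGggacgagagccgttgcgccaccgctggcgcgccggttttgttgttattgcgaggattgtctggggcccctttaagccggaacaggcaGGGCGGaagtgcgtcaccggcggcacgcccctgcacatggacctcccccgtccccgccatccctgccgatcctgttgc

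The windows of VPS9D1-AS1 and ALDH1A3-AS1 held 5 GC boxes each, that of HERPUD2-AS1 held 3, that of THAP9-AS1 held 2, and those of PRRT3-AS1 and SLC25A25-AS1 held none. CG pairs, which cluster at the starts of broadly expressed genes, numbered 46 in the window of ALDH1A3-AS1, 32 in that of THAP9-AS1, 28 in those of PRRT3-AS1 and HERPUD2-AS1 and 21 in that of VPS9D1-AS1. SLC25A25-AS1 stood apart with 3 CG pairs and a run of repeated cytosine-rich units. Its window was 53.7% C, close to the 52.0% of the VPS9D1-AS1 window. RefSeq windows were found for 280 of the 374 members. A GC box was present in 52.9% of these and in 44.6% of all 27305 RefSeq windows. TATAAA on either strand (so also TTTATA), anywhere in the window, was present in 5.71% and 12%, and the median number of CG pairs was 20 and 14. The start in RefSeq lay 0 to 108 bases from that in GENCODE for these 6.

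The pentamer AUCUU, written ATCTT in DNA letters, is a sequence that Matrin3 is known to prefer. It was counted over the whole span of each gene on its own strand. The median was 1.16 per kb in members and 1.22 per kb in their sense genes, and 352 members held at least 1. Among the 6 called members the density was highest in THAP9-AS1 at 2.39 per kb and lowest in PRRT3-AS1 at 0.677 per kb. Over the 276 members that could be tested, Spearman's rho between the log2 change and this density was -0.14, and between the log2 change and the GC content of the span it was 0.20, both given as a description over genes that share the same 6 libraries. The 60 bases with the most pentamers (the first of equals) are shown for the 2 called members with the highest density, on hg38, with the pentamer in capitals.
THAP9-AS1 (chr4:82895163-82895222, minus strand): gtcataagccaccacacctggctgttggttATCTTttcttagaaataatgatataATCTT
HERPUD2-AS1 (chr7:35696926-35696985, plus strand): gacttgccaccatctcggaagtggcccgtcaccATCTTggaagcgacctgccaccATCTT

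Antisense RNAs were low in level. Their median was 2.04 TPM (transcripts per 1000000, a level per length) against 13.4 TPM for the sense genes, and 28 members reached 10 TPM. In 300 of 368 named pairs the sense gene had the higher mean TPM. 282 members had a mean under 5 CPM and 42 had at least 10 CPM, and the 10 highest held 37.0% of the counts of all members. Together the members took 0.225% to 0.253% of the counts of a siCTRL library and 0.215% to 0.234% of a siMatrin3 library, ranges that overlap. The median member had 95.6 estimated counts summed over the 6 libraries. At the limit of the rule, LOXL2-AS1, CALCRL-AS1 and RUNDC3A-AS1 lay just inside with means of 1.006, 1.001 and 1.0 CPM, and NRSN2-AS1, FOXN3-AS1 and ARAP1-AS1 just outside with 0.998, 0.992 and 0.992 CPM.

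The highest antisense RNA was TUBA1B-AS1, opposite the α-tubulin gene TUBA1B. It was at 376, 434 and 438 TPM in siCTRL and at 405, 409 and 371 TPM in siMatrin3, and TUBA1B at 857, 839 and 881 TPM and at 791, 709 and 763 TPM. The groups overlapped for the antisense RNA, while TUBA1B was lower in every siMatrin3 library. Neither passed, with log2 changes of 0.08 ± 0.07 (adjusted p = 0.511) and -0.08 ± 0.05 (adjusted p = 0.396). On 34.0% of its exon bases TUBA1B-AS1 shares sequence positions with TUBA1B.

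PHLDA1-AS1, opposite a gene for a protein with a pleckstrin homology-like domain, was at 80.4 ± 6.71 TPM in siCTRL and 77.7 ± 10.3 in siMatrin3. HMGA2-AS1, which overlaps the gene of a chromatin protein of the high mobility group, was at 46.4 ± 13.9 and 40.1 ± 9.67 TPM. Both overlapped between the groups, and 97.2% of the exon bases of PHLDA1-AS1 are shared with PHLDA1. HMGA2 itself was at 137 ± 28.5 and 111 ± 14.4 TPM with a log2 change of -0.39 on the count scale. It missed the threshold at an adjusted p of 0.0510 and passed in 6 of the alternative settings. Among these was the fit with replicate number as a block (adjusted p = 8.67e-04 by edgeR). The groups overlapped, DESeq2 gave an adjusted p of 0.200, and without siCTRL replicate 3 the log2 change was -0.20 (adjusted p = 0.218 by edgeR).

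PAX8-AS1, at the gene of a transcription factor of thyroid and kidney development, was at 32.8, 30.0 and 30.8 TPM in siCTRL and at 22.8, 23.3 and 24.3 TPM in siMatrin3. All siMatrin3 libraries were lower. The change did not pass on counts (log2 change -0.19 ± 0.07, adjusted p = 0.113 by edgeR) and was larger per length (-0.39 on log2(TPM + 1), adjusted p = 0.0743 by limma). With effective lengths as an offset to the counts it was -0.29 (adjusted p = 0.162 by edgeR). PAX8 was at 8.06 ± 1.23 and 6.83 ± 1.56 TPM.

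OIP5-AS1, also known as Cyrano, is a conserved RNA that directs the decay of a microRNA, and OIP5 is a protein of the centromere. In siCTRL it was at 89.6, 81.1 and 82.2 CPM and in siMatrin3 at 92.3, 108 and 97.5 CPM. Every siMatrin3 library was higher, yet the change was near the threshold (log2 change 0.24 ± 0.07, adjusted p = 0.0554 by edgeR). In the fit blocked on replicate number it passed (adjusted p = 0.0354). On TPM values the direction was lost, with 23.9 ± 1.89 TPM in siCTRL and 23.2 ± 3.39 in siMatrin3. OIP5 was at 12.8 ± 0.65 and 10.4 ± 1.61 CPM and missed the threshold (log2 change -0.31 ± 0.16, adjusted p = 0.250).

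NR2F1-AS1 lies head to head with NR2F1, the gene of an orphan nuclear receptor. NR2F1 rose from 62.0 ± 3.08 to 99.4 ± 4.66 CPM (log2 change 0.68 ± 0.07, adjusted p = 7.24e-05 by edgeR), with no overlap between the groups. NR2F1-AS1 was at 28.7, 19.4 and 19.9 CPM in siCTRL and at 23.6, 20.0 and 20.7 CPM in siMatrin3, which overlap. Its log2 change was -0.04 ± 0.15 (adjusted p = 0.893). The change of the antisense RNA minus that of the sense gene was -0.74 ± 0.17 on the log2 scale, with an unadjusted p of 0.00176 and an adjusted p of 0.201 by limma over all pairs tested, so that the difference within this pair did not pass.

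**Figure D1:**
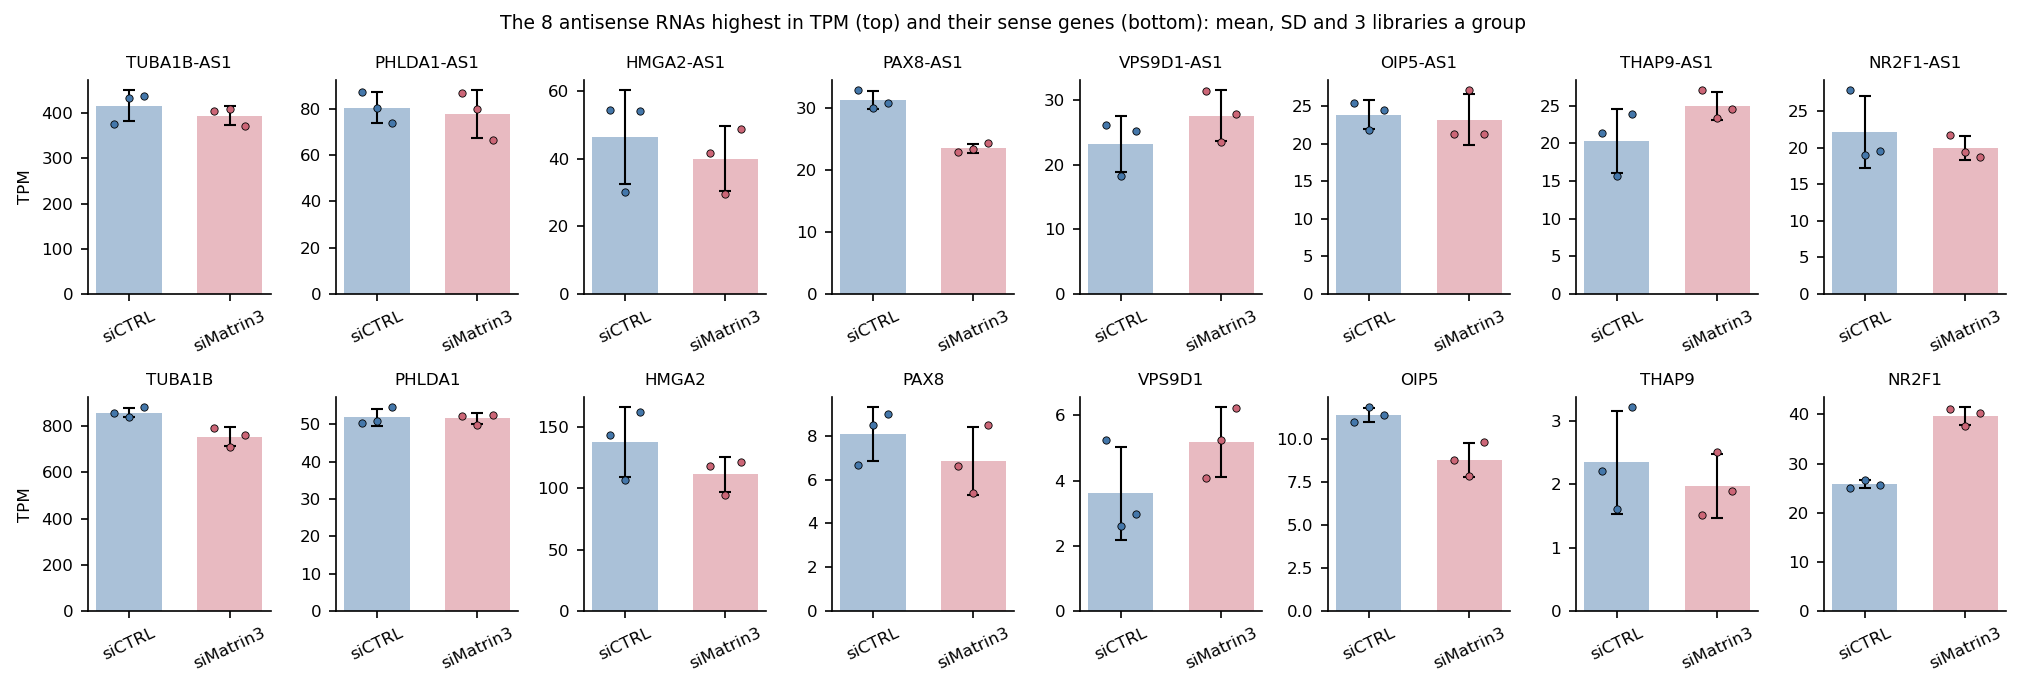
Level in TPM on y axes that start at 0, scaled separately for each gene, of the 8 antisense RNAs highest in mean TPM (top) and of their sense genes (bottom) in both groups; each bar is a group mean with its SD, and each point is 1 library (3 a group). The siMatrin3 points lie below all siCTRL points for PAX8-AS1, TUBA1B and OIP5 and above them for NR2F1. The groups overlap for TUBA1B-AS1 (371 to 438 TPM over all libraries), VPS9D1-AS1 and THAP9-AS1.

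Across all genes, 10.9% of 14334 tested were past an adjusted p of 0.05 by edgeR, 5.68% higher and 5.18% lower in siMatrin3. Of the 374 antisense RNAs, 276 passed the filter on low counts and 98 did not. Of the 276, 6 were called, 4 higher and 2 lower, which is 2.17%, and 30 were at an unadjusted p under 0.05. The sense genes were called at 12.2%, with 21 higher and 19 lower of 328 tested. A member could pass the filter through 1 group alone, so all 374 were also fitted with every gene at a mean of at least 1 CPM. In that fit 5 of the 374 were called, 4 higher and 1 lower, against 9.28% of 15665 genes, and none of the 98 left out before was called, although 7 of them were at an unadjusted p under 0.05.

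The median log2 change of the tested members was -0.05 and that of all genes was -0.00065, with 159 members below and 117 above 0. Their changes ran from -1.10 to 1.15. In 15 of the 276 tested members all siMatrin3 libraries were higher than all siCTRL libraries, and in 30 of the 276 all were lower. Among all 14334 genes tested this held for 2157 (15%) and 2109 (14.7%), larger shares than in the members. No p is given for this balance, because the members were chosen with results of these libraries known.

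**Figure D2:**
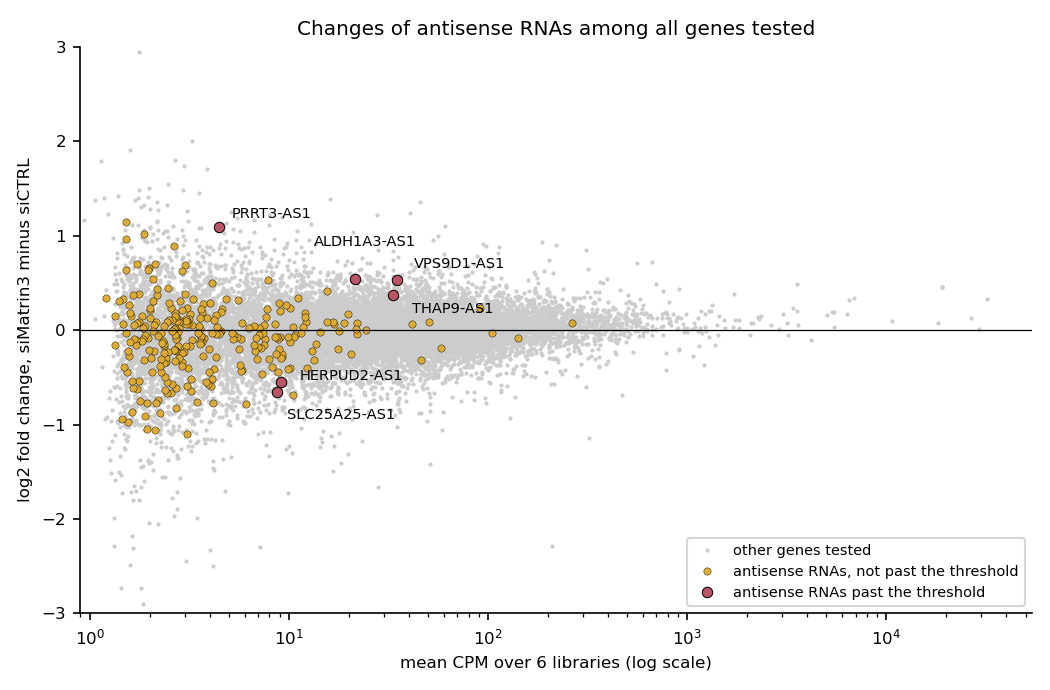
Log2 change (y axis, siMatrin3 minus siCTRL, by edgeR) against mean CPM over 6 libraries (x axis, log scale) of all genes tested (grey), antisense RNAs (yellow) and the 6 antisense RNAs past an adjusted p of 0.05 (red, named); 6 genes with a change beyond 3 lie outside the axis. Most antisense RNAs sit at the low left, where the changes scatter widest, and the 6 named lie at 4.49 to 35.0 CPM.

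Few antisense RNAs were at levels where genes in general were called. In all genes the share called rose with level, from 3.06% of those tested at a mean of 1 to 2 CPM, 1.95% at 2 to 5 and 4% at 5 to 10 to 11.1% at 10 to 50 and 19.6% at 50 CPM or more. Among members the counts called in these bins were 0 of 50, 1 of 134, 2 of 50, 3 of 36 and 0 of 6. At the shares of all genes the same members would give 11.3 calls, beside the 6 made. Why they were fewer was not tested. The median SE of a log2 change was 0.34 in members and 0.33 in all genes at 2 to 5 CPM. The 1 member called in that bin, PRRT3-AS1, had a change of 1.10, and SCUBE3-AS1 at -1.10 and ADAMTSL4-AS1 at -1.05 did not pass. The smallest change that could be detected at this depth was not tested.

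**Figure D3:**
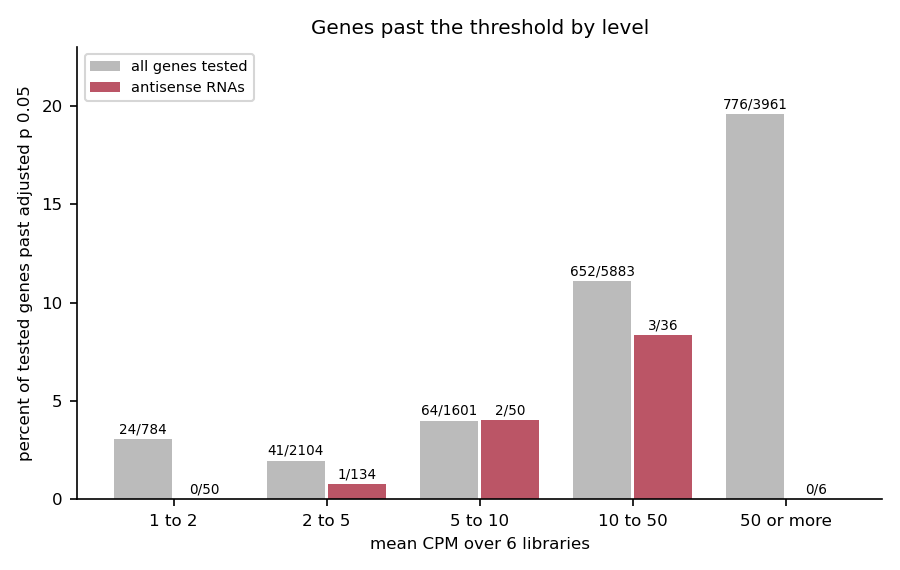
Percent of tested genes past an adjusted p of 0.05 by edgeR (y axis, from 0) in bins of mean CPM over 6 libraries (x axis), for all genes tested (grey) and antisense RNAs (red), with called over tested above each bar. The grey bars rise to 19.6% at 50 CPM or more, and the red bars are 0 of 50, 1 of 134, 2 of 50, 3 of 36 and 0 of 6 from left to right.

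VPS9D1-AS1 (ENSG00000261373, chromosome 16, 89711856 to 89718165, plus strand) had the lowest p of all members. It was at 32.6, 24.7 and 30.5 CPM in siCTRL and at 43.8, 37.3 and 43.2 CPM in siMatrin3, with no overlap. It rose to 142% of control (log2 change 0.53 ± 0.11, SE, adjusted p = 0.00844 by edgeR). In TPM the groups overlapped, at 26.13, 18.17 and 25.17 in siCTRL and 31.35, 23.46 and 27.89 in siMatrin3. VPS9D1-AS1, also called MYU, has been described in colorectal cancer downstream of Wnt and MYC signalling. Its whole span lies inside VPS9D1, the gene of a protein with a domain known from activators of Rab GTPases, and 518 of its 1753 exon bases are shared with it. VPS9D1 was at 8.20, 5.41 and 4.93 CPM in siCTRL and at 7.0, 9.40 and 9.51 CPM in siMatrin3, groups that overlap, and did not pass (log2 change 0.51 ± 0.23, adjusted p = 0.199). The difference within the pair was 0.02 ± 0.25.

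ALDH1A3-AS1 (ENSG00000259583, chromosome 15, 100892343 to 100919391, minus strand) rose together with its sense gene. It was at 15.5, 19.0 and 18.1 CPM in siCTRL and at 22.8, 29.3 and 25.9 CPM in siMatrin3, all higher, a rise to 148% of control (log2 change 0.54 ± 0.12, adjusted p = 0.0147 by edgeR). ALDH1A3, an aldehyde dehydrogenase that makes retinoic acid and is used as a marker of stem-like tumour cells, was at 134, 168 and 152 CPM and at 207, 244 and 255 CPM, a rise to 155% of control (log2 change 0.63 ± 0.09, adjusted p = 7.23e-04). These groups did not overlap either. The 2 genes share 1715 of the 7758 exon bases of ALDH1A3-AS1, and its exons also touch LRRK1. With ALDH1A3 the higher by far in reads, shared reads and a joint change cannot be told apart here.

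PRRT3-AS1 (ENSG00000230082, chromosome 3, 9947404 to 9954787, plus strand) had the largest rise of the called members. It went from 2.81, 2.70 and 3.17 CPM in siCTRL to 6.72, 4.88 and 6.86 CPM in siMatrin3, 213% of control (log2 change 1.10 ± 0.27, adjusted p = 0.0195 by edgeR). PRRT3, a proline-rich transmembrane protein, overlapped between groups at 6.11 ± 1.6 and 5.85 ± 1.18 CPM (log2 change -0.04 ± 0.26, adjusted p = 0.954). The difference within the pair was 1.05 ± 0.31 with an unadjusted p of 0.00646 and did not pass after adjustment over all pairs (adjusted p = 0.374 by limma). PRRT3-AS1 shares 201 of 614 exon bases with PRRT3.

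THAP9-AS1 (ENSG00000251022, chromosome 4, 82893009 to 82900960, minus strand) starts 276 bases inside THAP9, a gene derived from a DNA transposase, on the other strand, so that the 2 genes overlap head to head over 277 bases. The antisense RNA was at 31.9, 24.6 and 32.4 CPM in siCTRL and at 39.6, 35.5 and 38.2 CPM in siMatrin3, every siMatrin3 library being higher. Its rise was to 128% of control (log2 change 0.38 ± 0.11, adjusted p = 0.0429 by edgeR). In TPM the groups overlapped, at 21.38, 15.61 and 23.92 in siCTRL and 27.07, 23.36 and 24.57 in siMatrin3. THAP9 was at 5.08 ± 1.42 and 4.64 ± 1.40 CPM with overlap (log2 change -0.16 ± 0.30, adjusted p = 0.796). Exons of THAP9-AS1 share bases with SEC31A, a coat protein gene of vesicles leaving the endoplasmic reticulum, on the same strand, so its reads are uncertain even where strand was counted.

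SLC25A25-AS1 (ENSG00000234771, chromosome 9, 128108581 to 128118693, minus strand) fell from 10.8, 9.76 and 11.4 CPM to 6.86, 5.92 and 7.33 CPM, with no overlap. This left 62.9% of control (log2 change -0.66 ± 0.18, adjusted p = 0.0318 by edgeR). Its sense gene SLC25A25 encodes a mitochondrial carrier for ATP-magnesium and phosphate, and was at 25.1 ± 0.80 and 23.9 ± 3.79 CPM, which overlap (log2 change -0.06 ± 0.12, adjusted p = 0.799). The genes meet at their 3′ ends and share 665 bases.

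HERPUD2-AS1 (ENSG00000271122, chromosome 7, 35695214 to 35699413, plus strand) fell from 9.93, 11.2 and 11.6 CPM to 7.54, 7.49 and 7.33 CPM, or 68.4% of control, and the groups did not overlap (log2 change -0.55 ± 0.17, adjusted p = 0.0478 by edgeR). HERPUD2, a protein with a ubiquitin-like domain, was at 17.5 ± 4.05 and 15.7 ± 1.41 CPM, which overlap (log2 change -0.17 ± 0.16, adjusted p = 0.556). The antisense RNA crosses the start of HERPUD2 and shares 487 of its 4200 exon bases.

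For each of the 6, an exact two-sided permutation test of the 3 against 3 CPM values gave p = 0.1, the smallest this design allows. All 6 share exon bases with their sense gene, and of the 50 tested members whose exons touch no other gene none passed by edgeR, with 8 at an unadjusted p under 0.05. Exon bases are shared with the sense gene in 206 of the 276 tested members. Only 2.17% of the 276 were called, so these counts show little about shared exons. In a fit offset by effective length, or on log2(TPM + 1) by limma, none of the 6 passed, and over all genes 1.61% and 1.04% did. With the offset the log2 changes were 1.09 for PRRT3-AS1, -0.66 for SLC25A25-AS1, -0.55 for HERPUD2-AS1, 0.43 for THAP9-AS1, 0.43 for ALDH1A3-AS1 and 0.39 for VPS9D1-AS1. On log2(TPM + 1), which understates the change of low genes, they were 0.84, -0.45, -0.45, 0.31, 0.28 and 0.25 in the same order. Leaving out a library left 2 to 6 antisense RNAs called (2 without siCTRL replicate 1 or 3 or siMatrin3 replicate 2 or 3, 3 without siMatrin3 replicate 1) and 4.75% to 8.35% of all genes. The 6 without siCTRL replicate 2 were 2 higher and 4 lower, and 3 of them were among the 6 above. By DESeq2 5 were called, all higher, of which 4 were among the 6 above and the other was OIP5-AS1, while neither of those that fell by edgeR passed. These 5 were 1.34% of the 374 members, against 4.63% of the 34319 genes that DESeq2 fitted, with or without an adjusted p. DESeq2 gave an adjusted p for 111 of the 374 members.

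**Figure D4:**
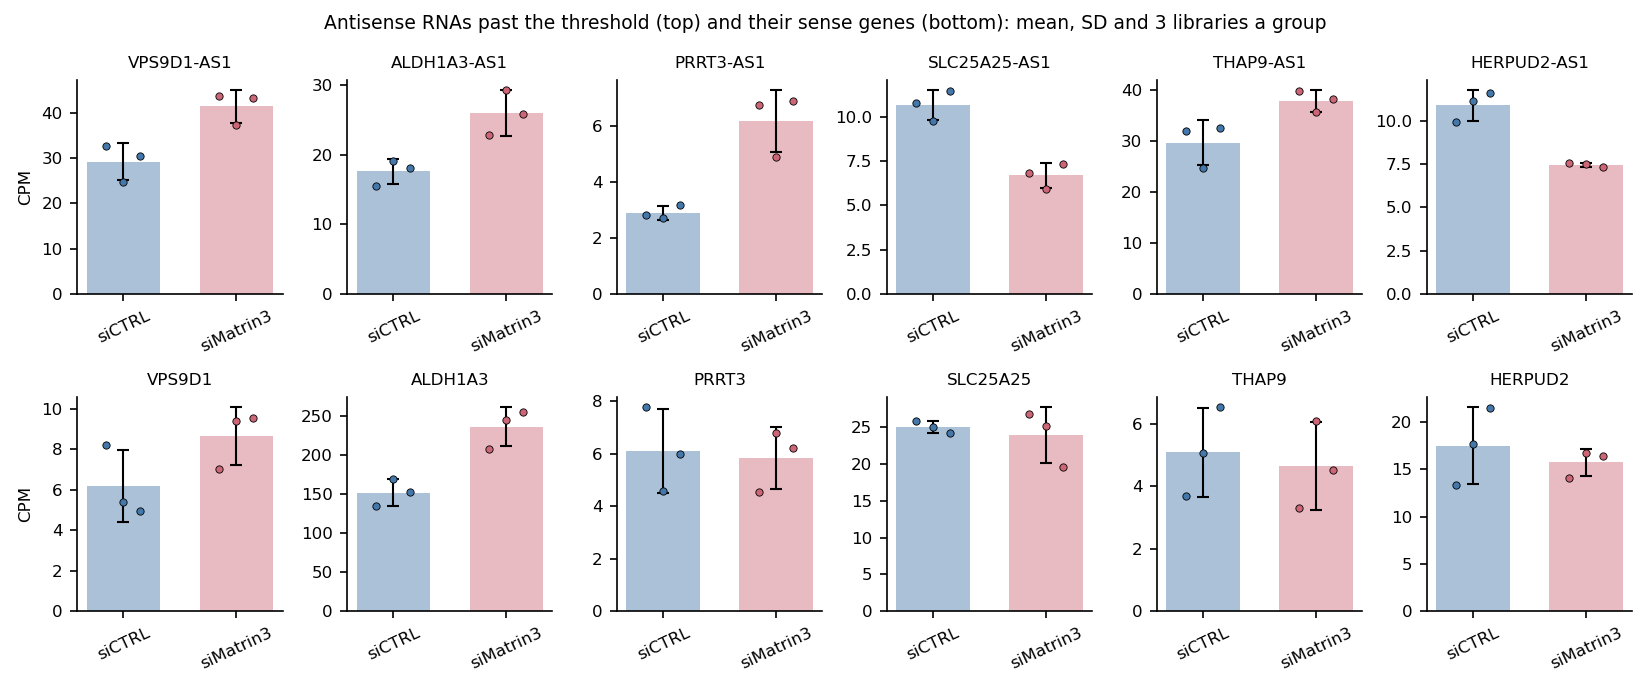
Level in CPM on y axes that start at 0, scaled separately for each gene, of the 6 antisense RNAs past an adjusted p of 0.05 (top) and of their sense genes (bottom) in both groups; each bar is a group mean with its SD, and each point is 1 library (3 a group). The groups do not overlap for any antisense RNA in the top row, and in the bottom row they separate for ALDH1A3, at 134 to 168 and 207 to 255 CPM, and overlap for the other 5 sense genes.

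In the fit blocked on replicate number, 9 of the 276 antisense RNAs (3.26%) were called, 5 higher and 4 lower, and the share of all genes called rose to 15.8%. They held all 6 above and added OIP5-AS1, NUTM2B-AS1 and SCUBE3-AS1. NUTM2B-AS1 was named only because it completes this count (log2 change -0.32, adjusted p = 0.0882 without the block and 0.00708 with it). SCUBE3-AS1 lies within an intron of SCUBE3, the gene of a secreted and cell surface protein. It was at 5.18, 4.11 and 3.35 CPM in siCTRL and at 2.33, 1.04 and 2.34 CPM in siMatrin3, with no overlap, and had the most negative change of all tested members (-1.10 ± 0.35, adjusted p = 0.0620 without the block and 0.0413 with it).

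Other members with large changes did not pass by edgeR. ADAMTSL4-AS1 was at 4.75, 1.29 and 2.64 CPM in siCTRL and 0.549, 1.74 and 1.72 in siMatrin3, which overlap (log2 change -1.05 ± 0.53, adjusted p = 0.237). VCAN-AS1, across the gene of the matrix proteoglycan versican, was at 2.83 ± 0.68 and 1.56 ± 0.29 CPM (-0.87 ± 0.35, adjusted p = 0.137), and SLC44A3-AS1, at a choline transporter-like gene, at 3.46 ± 0.63 and 1.96 ± 0.63 (-0.83 ± 0.34, adjusted p = 0.145). For SLC44A3-AS1 the sign turned with effective lengths as an offset, to 0.14.

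CDKN2B-AS1, also known as ANRIL, crosses the CDKN2B locus of cell cycle inhibitors. It was at 7.55, 6.23 and 9.51 CPM in siCTRL and at 3.70, 5.40 and 4.37 CPM in siMatrin3. The siMatrin3 libraries were all lower, at 57.8% of control on average, and the change was near the threshold (log2 change -0.78 ± 0.25, adjusted p = 0.0612 by edgeR and 0.0534 with the block). CDKN2B, an inhibitor of the kinases CDK4 and CDK6, was at 9.78 ± 1.47 and 6.75 ± 0.37 CPM (-0.52 ± 0.19, adjusted p = 0.0955).

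On the side of higher values, TNFRSF10A-AS1, at the gene of a TRAIL death receptor, was at 1.87 ± 0.22 and 3.58 ± 1.09 CPM (log2 change 0.90 ± 0.35, adjusted p = 0.120). MRTFA-AS1 was at 1.67 ± 0.34 and 2.63 ± 0.57 CPM, EFCAB10-AS1 at 2.34 ± 0.40 and 3.73 ± 0.25, and CIRBP-AS1 at 2.33 ± 0.44 and 3.60 ± 1.43. MRTFA is an actin-sensing coactivator and CIRBP a cold-inducible RNA-binding protein. The groups did not overlap for the first 3 of these 4 and did for CIRBP-AS1, and adjusted p-values were 0.242, 0.162 and 0.302 for the last 3. CIRBP itself rose from 87.8 ± 1.67 to 104 ± 2.17 CPM (log2 change 0.25 ± 0.06, adjusted p = 0.0178 by edgeR).

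CD44-AS1 lies at CD44 and THUMPD3-AS1 overlaps SETD5, genes whose exons the study followed, while the name of the second comes from its other neighbour, THUMPD3. CD44-AS1 was at 2.16, 2.23 and 1.94 CPM in siCTRL and at 2.33, 2.61 and 1.40 CPM in siMatrin3, which overlap, with a log2 change of -0.0044 ± 0.35. CD44, the hyaluronan receptor across it, rose with a log2 change of 0.42 ± 0.07 (adjusted p = 0.00205 by edgeR), and the difference within the pair was -0.46 ± 0.33 and did not pass (unadjusted p = 0.193 by limma). THUMPD3-AS1 was at 17.9 ± 1.55 and 17.7 ± 3.15 CPM with a log2 change of -0.0038 ± 0.14. THUMPD3, a tRNA methyltransferase gene, was at 64.0 ± 3.13 and 65.3 ± 4.57 CPM (log2 change 0.03 ± 0.08, adjusted p = 0.848). Both members thus stayed within the spread of their libraries.

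The measured changes of antisense and sense genes correlated weakly. With a median SE of 0.32 for the log2 change of a member, this cannot show how closely the underlying changes were related. Over 250 pairs in which both genes were tested, the log2 changes had Pearson's r of 0.20 and Spearman's rho of 0.16, a description over pairs that share the same 6 libraries and, in 192 of them, exon bases. The signs were equal in 130 of the 250 pairs, or 52.0%. In the 192 pairs with shared exons r was 0.21 and rho 0.16, with equal signs in 51.6%. In the 39 pairs that cross only introns they were 0.19 and 0.15, with equal signs in 46.2%, and in the 17 pairs with near starts and no overlap 0.22 and 0.38, with equal signs in 70.6%. The levels of the partners in TPM had a rho of -0.01. No difference between a member and its sense gene passed by limma among 1025 antisense and opposite-strand pairs tested, and at an unadjusted p under 0.05 there were 14 of the 250 named pairs, or 5.6%, against 8.59% of all pairs. The median SE of a difference was 0.30.

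Sense genes that passed were then taken as the starting point. For comparison, 159 of all 276 tested members were below 0, and 2.17% of the 276 were called, beside 10.9% of all genes. The balance of signs in the 2 groups below was not tested. Of 22 members at a sense gene that rose, 14 were tested, 7 were above and 7 below 0, and 1 was called, ALDH1A3-AS1. Of 19 members at a sense gene that fell, 12 were tested, 11 were below 0 with a median of -0.51, and none was called by edgeR. ZFPM2-AS1 (log2 change -0.69 ± 0.22, adjusted p = 0.102), POC1B-AS1 (-0.66, adjusted p = 0.336) and PKP4-AS1 (-0.87, adjusted p = 0.230) were in this group and UFD1-AS1 was the member above 0 (0.15, adjusted p = 0.883); these 4 were picked after their values were seen. ZFPM2, a cofactor of GATA transcription factors, fell by 0.85, POC1B, a centriole protein, by 0.60 and PKP4, a protein of cell junctions, by 0.39 on the log2 scale, with adjusted p-values of 0.0354, 0.00876 and 0.00225 by edgeR. Exon bases were shared in 10 of these 12 pairs and in 11 of the 14 at sense genes that rose.

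**Figure D5:**
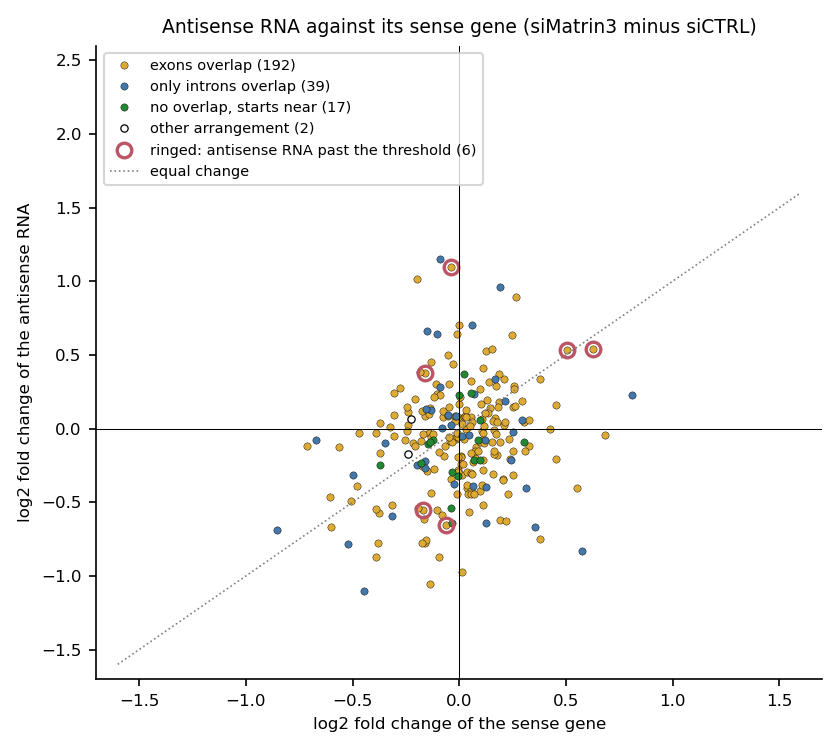
Log2 change of the antisense RNA (y axis) against that of its sense gene (x axis), both siMatrin3 minus siCTRL by edgeR, for 250 pairs with both genes tested, coloured by their arrangement; red rings mark the 6 antisense RNAs past the threshold and the dotted line marks equal change. The points spread widely around 0 with r of 0.20, and 2 ringed points, VPS9D1-AS1 and ALDH1A3-AS1, lie near the line at about equal changes of both partners.

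By arrangement, the 6 calls all lay among the 206 tested members that share exon bases with the sense gene. None of the 46 that cross only introns and none of the 17 with near starts was called by edgeR, with 10 and 0 at an unadjusted p under 0.05, and the medians of the 3 groups were -0.05, -0.05 and -0.10. The difference between arrangements was not tested. By the family of the sense gene, beside 2.17% of all tested members and 10.9% of all genes, 1 of 12 tested members at solute carrier genes was called (SLC25A25-AS1), none of 13 at zinc finger genes named ZNF or ZBTB and none of 5 at HOX clusters, with 3, 1 and 0 at an unadjusted p under 0.05. The zinc finger members had 12 of 13 changes below 0 and a median of -0.22, from -0.94 to 0.11. Of all 276 tested members 159 were below 0, with a median of -0.05. The balance of signs in this family was not tested.

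Antisense RNAs known from cancer work formed a list of 23 members. Of these 22 were tested, and 2 were called (9.09%, against 10.9% of all genes): VPS9D1-AS1 rose and SLC25A25-AS1 fell, with a median change of 0.05. Beside these 2 and THUMPD3-AS1, the highest were MAPKAPK5-AS1 at 11.5 ± 1.06 and 12.7 ± 2.20 CPM, DLGAP1-AS2 at 11.7 ± 0.35 and 12.1 ± 1.13, and TTN-AS1 at 11.5 ± 0.75 and 8.72 ± 3.23. The siMatrin3 value of TTN-AS1 rests on 1 low library (10.6, 10.6 and 4.99 CPM), and its adjusted p was 0.311. MCM3AP-AS1 was at 8.76 ± 1.73 and 10.7 ± 1.79 CPM and missed the threshold (adjusted p = 0.429 by edgeR).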

How the data were processed

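The sample labels and the study's methods describe RNA from HCT116 cells 48 h after transfection, 3 siCTRL and 3 siMatrin3 libraries. The methods name ribosomal RNA depletion and a directional kit, the labels a stranded mRNA kit. The authors processed reads with cutadapt, TopHat and RSEM on hg19, per the labels. The deposited tables give an expected count per gene with no normalization between libraries, and TPM values scaled within each library by the authors. The authors' FPKM values, also from RSEM, were not used. Neither the annotation release nor the strand setting is given in the sources used here. Gene IDs were matched to GENCODE 44 on hg38 (99.3%).

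Expected counts were rounded, filtered by edgeR's filterByExpr (minimum count 10, minimum total 15), scaled by TMM and tested two-sided with the quasi-likelihood method of edgeR 4.0.16 in R 4.3.3 (Benjamini-Hochberg at 0.05 over 14334 genes). SE is the log2 fold change over the root of F. Printed CPM use TMM-scaled totals, and the rule of 1 CPM used unscaled totals. Antisense minus sense differences were tested by limma 3.58.1 from log2 CPM (prior count 2) over all antisense and opposite-strand pairs. The scripts were tested on simulated data.

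The members and gene lists were chosen with earlier results of these data known. Named were MATR3, every called member and the 8 highest in TPM with their sense genes, the 5 largest rises and falls at 2 CPM or more, CD44-AS1, THUMPD3-AS1, the genes at the 1 CPM limit, and the 6 highest tested members of a cancer list. The gene families were not part of that rule. Total counts of 4556658 to 8400412 per library limit the precision of low genes. Libraries of a group differed by more than sampling noise (chi-square of 2.62 to 4.36 per degree of freedom), and the p-values measure the spread between cultures of 1 line. Deviations of libraries with the same replicate number correlated at 0.107, 0.104 and 0.157, and all other combinations were below 0. Deviations within a group sum to 0, so the negative values are no separate evidence, and these correlations do not settle whether the numbers pair the libraries. The main fits therefore used group only, and the replicate block is given as an alternative. Alternatives were other scalings and filters, DESeq2 1.42.0, limma on log2(TPM + 1), effective lengths as an offset, the replicate block, leaving out each library, leaving out mitochondrial and small RNA genes, an adjusted p of 0.01, and members with no exon overlap.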

Additional observations from a re-analysis of the deposited data

How the results depend on the processing

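Depth limits these results: the median antisense RNA had 95.6 estimated counts over 6 libraries, and 98 of 374 were too low to test. The count of 6 called antisense RNAs and of 40 called sense genes stayed within 1.5 times under RLE and upper quartile scaling, a filter at a mean of 1 CPM, DESeq2, and without mitochondrial and small RNA genes. With no count filter 10 of the 374 antisense RNAs (2.67%) were called, a smaller share than the 5.77% of all 34319 genes in that fit. At an adjusted p of 0.01 only 1 was called, and among members whose exons overlap no other gene 0 were (8 of those 50 at an unadjusted p under 0.05). On log2(TPM + 1) by limma and with effective lengths as an offset in edgeR 0 were called, with 27 and 23 at an unadjusted p under 0.05, and all genes called fell to 149 and 231. DESeq2 called 5 of the 374 (1.34%), all higher, against 4.63% of all genes fitted, and gave an adjusted p for 111 members. The cause was not tested. Sense genes called were 10 on log2(TPM + 1), 13 with the offset and 19 at an adjusted p of 0.01. Leaving out a library gave 2 to 6 antisense RNAs (2 without siCTRL replicate 1 or 3 or siMatrin3 replicate 2 or 3, 3 without siMatrin3 replicate 1, and 6 without siCTRL replicate 2, of which 2 were higher, 4 lower and 3 shared with the 6), 707 to 1256 of all genes, and 21 to 40 sense genes (21 without siCTRL replicate 3).

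The replicate block gave 9 antisense RNAs (3.26%) and 59 sense genes, with 2259 of all 14334 genes (15.8%). It added the calls of OIP5-AS1, NUTM2B-AS1, SCUBE3-AS1 and HMGA2 and changed no other call among the members and sense genes named here. The 0 pairs called stayed at 0 in all alternatives. Over 15 alternatives VPS9D1-AS1 was called in 13, ALDH1A3-AS1 in 10, PRRT3-AS1 in 9, THAP9-AS1 and SLC25A25-AS1 in 7 each and HERPUD2-AS1 in 4. The median change of the members was -0.12 on log2(TPM + 1), where that of all genes was -0.09, and -0.099 to -0.030 when a library was left out. The log2 fold change of MATR3 stayed between -2.35 and -2.25.

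Signs turned for none of the called antisense RNAs. Those that turned included SLC44A3-AS1 and PHLDA1 (adjusted p = 0.145 and 0.232 by edgeR in the main fit), whose groups did not overlap in CPM. OIP5-AS1, near the threshold, turned too and was at -0.045 on log2(TPM + 1). On that scale TUBA1B-AS1 was at -0.074, PHLDA1-AS1 at -0.054, SLC44A3-AS1 at 0.026, THUMPD3-AS1 at 0.10, DLGAP1-AS2 at -0.067, PHLDA1 at -0.0096 and PAX8 at -0.22. With the offset SLC44A3-AS1 was at 0.14, THUMPD3-AS1 at 0.24 and PAX8 at -0.13, and PAX8 was at -0.00031 under upper quartile scaling. With no count filter CD44-AS1 was at 0.012 and THUMPD3-AS1 at 0.013, and by DESeq2 they were at 0.0056 and 0.00013. When a library was left out the values ran from -0.17 to 0.22 for CD44-AS1, -0.27 to 0.11 for HMGA2-AS1, -0.16 to 0.13 for NR2F1-AS1, -0.080 to 0.13 for THUMPD3-AS1, -0.0070 to 0.16 for PHLDA1-AS1, -0.021 to 0.21 for MAPKAPK5-AS1, -0.037 to 0.099 for DLGAP1-AS2, -0.23 to 0.15 for PRRT3, -0.16 to 0.058 for SLC25A25, -0.40 to 0.043 for THAP9, -0.080 to 0.080 for PAX8 and -0.44 to 0.082 for ADAMTSL4.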

Other observations

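Antisense genes named without a number were few and held 2 calls among 7 tested by edgeR, beside 10.9% of all genes. HOXA10-AS, in the HOXA cluster, rose from 6.94 ± 0.97 to 12.6 ± 3.75 CPM (mean ± SD of 3 libraries, log2 change 0.88 ± 0.22, adjusted p = 0.0227), and BDNF-AS, opposite the gene of a neurotrophic factor, fell from 16.6 ± 1.22 to 11.4 ± 1.62 CPM (-0.55 ± 0.15, adjusted p = 0.0297). The other 5, PINK1-AS, BACE1-AS, MKLN1-AS, TRPM2-AS and CTBP1-AS, did not pass. In a fit offset by effective length the call was lost for HOXA10-AS (log2 change 0.59, adjusted p = 0.266 by edgeR) and BDNF-AS (-0.52, adjusted p = 0.209), and on log2(TPM + 1) by limma too (adjusted p = 0.339 and 0.146).

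Genes named LINC and a number, the intergenic long non-coding RNAs, had 7 calls among 111 tested (6.31%, against 10.9% of all genes), 1 higher and 6 lower, with a median log2 change of -0.13. LINC01963 fell from 20.1 ± 3.18 to 8.54 ± 0.66 CPM (-1.24 ± 0.15, adjusted p = 2.99e-04 by edgeR) and LINC00641 from 44.7 ± 5.97 to 26.7 ± 2.43 CPM (-0.72 ± 0.11, adjusted p = 0.00129), while LINC01234 rose from 25.5 ± 2.25 to 34.5 ± 1.11 CPM (0.44 ± 0.09, adjusted p = 0.0104). With the offset LINC01963 and LINC00641 passed (adjusted p = 0.0112 and 0.0400 by edgeR) and LINC01234 did not (0.162), and on log2(TPM + 1) by limma LINC01963 passed (0.0349) and the other two did not (0.0739 and 0.276). Divergent transcripts, named -DT, had 0 calls by edgeR among 88 tested, with 5 at an unadjusted p under 0.05 and a median of -0.08. All long non-coding RNAs together had 57 calls among 1204 tested, 16 higher and 41 lower, against 773 higher and 683 lower of 12177 protein-coding genes. The difference in direction between these classes was not tested.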
